A study of Mus musculus with 2 samples.

Results

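Mammals carry 3 related miRNA loci in which a gene of the miR-99/100 family, a let-7 gene and a miR-125 gene follow one another on the same strand. In the mouse these are Mir99a with Mirlet7c-1 and Mir125b-2, Mir100 with Mirlet7a-2 and Mir125b-1, and Mir99b with Mirlet7e and Mir125a, called here the Mir99a, Mir100 and Mir99b loci. Their 9 genes were taken by name and locus from the 1973 annotated miRNA genes of the count files, by a rule that uses no counts. Mirlet7e has no line of its own there, so let-7e was read from the opposite-strand counts of Gm25927, a gene model of 117 bases that lies across the let-7e hairpin on the other strand.

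MicroRNA sequencing was done on facial prominence, the embryonic tissue that forms the face and jaws, at embryonic day 13.5. Both libraries came from tissue labelled healthy of strain B6NCrl, with male and female embryos pooled and RNA shorter than 30 bases sequenced. They form 1 group of biological replicates 2 and 1, with separate tissue entries and 1 shared donor entry in the labels. The number of embryos per sample is not given there, so errors measure the spread between these samples only. Counts on the strand of the gene came to 5771249 in replicate 2 and 4562135 in replicate 1. Levels are CPM, counts per 1000000 of that total, and errors are the SD over the 2 libraries (n = 2 throughout). With 2 libraries an exact two-sided sign-flip permutation test of a difference between genes cannot go below p = 0.5, so such differences are given with their spread and without a test.

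MicroRNAs are cut from hairpin transcripts, and the seed, bases 2 to 8 of the mature strand, directs the pairing with messenger RNAs. The let-7 and miR-125 families share ancestry with let-7 and lin-4, timing genes of the nematode Caenorhabditis elegans. Both families hold back growth and stem-cell genes such as Lin28a and Hmga2 as tissues mature. LIN28 proteins in turn bind let-7 precursors and block their maturation. The miR-99/100 family is known to act on Mtor and Igf1r, genes of growth signalling.

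The mature strands of the 5′ arm show which members a uniquely placed read can separate. They are given from RefSeq (GRCm38.p6) with the seed in capitals. RefSeq's table had mature entries for all 9 genes but no 5′ entry for Mirlet7a-2, so let-7a is shown from the entry of Mirlet7a-1, whose letters also occur in the Mirlet7a-2 hairpin.
miR-99a-5p: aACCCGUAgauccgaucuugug
miR-100-5p: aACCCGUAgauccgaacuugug
miR-99b-5p: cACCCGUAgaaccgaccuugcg
let-7c-5p: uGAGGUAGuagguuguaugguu
let-7a-5p: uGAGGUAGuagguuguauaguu
let-7e-5p: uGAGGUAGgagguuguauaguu
miR-125b-5p: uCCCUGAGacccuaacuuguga
miR-125a-5p: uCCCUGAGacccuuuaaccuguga

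Within a family the seed is the same at all 3 loci, and the differences lie outside it. Counting from the 5′ end, miR-99a differs from miR-100 by A16U (the miR-100 base first), and miR-99b differs from miR-100 by A1C, U11A, A16C and U21C. From let-7a, let-7c differs by A19G and let-7e by U9G. MiR-125a is 24 bases long against 22 in miR-125b, and they share their first 13 bases. In a search of 2202 annotated miRNA hairpins of GENCODE release M21, the 5′ strands of miR-99a, miR-100, miR-99b, let-7e and miR-125a were each held by 1 hairpin. Let-7c was held by 2 (Mirlet7c-1 and Mirlet7c-2), let-7a by 2 (Mirlet7a-1 and Mirlet7a-2) and miR-125b by 2 (Mir125b-1 and Mir125b-2). Reads placed at several genome positions carry no gene in the files, so a full-length let-7c, let-7a or miR-125b read would add to no gene count.

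The 4 genes with a shared 5′ strand each have a 3′ strand found in their own hairpin only, shown here because a read of it can be assigned.
let-7c-1-3p: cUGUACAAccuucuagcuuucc
let-7a-2-3p: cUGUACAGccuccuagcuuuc
miR-125b-2-3p: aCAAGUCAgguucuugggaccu
miR-125b-1-3p: aCGGGUUAggcucuugggagcu
The counts are per gene, and the arm a read came from is not given. The hairpins of the let-7 members follow, with the 5′ strand in capitals, to show what surrounds it.
Mirlet7c-1: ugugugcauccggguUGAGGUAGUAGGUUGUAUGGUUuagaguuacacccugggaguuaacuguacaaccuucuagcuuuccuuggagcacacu
Mirlet7a-2: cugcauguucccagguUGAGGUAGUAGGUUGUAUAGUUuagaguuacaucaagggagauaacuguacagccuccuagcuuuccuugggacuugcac
Mirlet7e: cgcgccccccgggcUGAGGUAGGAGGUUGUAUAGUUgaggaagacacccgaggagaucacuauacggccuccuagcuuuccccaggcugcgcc

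The loci differ in compactness. All lie on the plus strand, in the order miR-99/100, let-7, miR-125 (GRCm38). The Mir99a locus spans chr16:77598936-77646343, where 0.656 kb separate the hairpins of Mir99a and Mirlet7c-1 and 46.5 kb separate Mirlet7c-1 and Mir125b-2. The Mir100 locus spans chr9:41531425-41582002, with gaps of 5.21 and 45.1 kb. The Mir99b locus fits into 0.692 kb at chr17:17830188-17830879, with gaps of 94 and 367 bases. Mir99a, Mirlet7c-1 and Mir125b-2 lie in introns of the noncoding gene Mir99ahg, and Mir125b-2 also overlaps 4 bases of an exon of C130023A14Rik. Mir100, Mirlet7a-2 and Mir125b-1 lie in introns of the noncoding genes 3110039I08Rik and Gm49317, with Mir125b-1 wholly inside an exon of Gm28119. Mir99b and Mirlet7e lie in introns of Spaca6, a gene named for sperm acrosome association, and 47 of the 68 bases of Mir125a overlap an exon of it.

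The counts of the 9 genes came to 14.5% of the same-strand gene total in replicate 2 and 12.8% in replicate 1, a mean of 13.6 ± 1.19%. Nearly all of this was miR-99/100: its 3 genes held 13.3% in replicate 2 and 11.5% in replicate 1, a mean of 12.4 ± 1.24%. The 3 miR-125 genes held 0.647 ± 0.0714% and the 3 let-7 positions 0.601 ± 0.0225%. Full-length miR-125b, let-7a and let-7c reads would add to no gene count. Each miR-99/100 5′ strand is held by 1 hairpin, so the families were not counted alike. By locus, the Mir99a locus held 6.62 ± 0.943%, the Mir100 locus 3.60 ± 0.407% and the Mir99b locus 3.40 ± 0.156%. Let-7e counts come from the opposite strand and lie outside the total, so values that include let-7e are ratios to it. With opposite-strand counts in the total, the 9 genes came to 13.3 ± 1.16%. In bulk tissue, fewer cells of a type and less RNA per cell cannot be told apart. A small-RNA read covers the whole mature strand, so levels were not divided by length.

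The first gene led every locus in these uniquely placed counts. Mir99a reached 72163 CPM in replicate 2, against 58924 CPM in replicate 1. That is 7.22% (95% Wilson interval 7.20 to 7.24) and 5.89% (5.87 to 5.91) of counts, and such intervals cover counting error only, because PCR copies of 1 molecule cannot be recognised in these counts. Mir100 reached 36716 CPM in replicate 2, against 30815 CPM in replicate 1, with a mean of 33766 ± 4173 CPM. Both genes stood higher in replicate 2, while Mir99b, with 23652 CPM in replicate 2, against 25217 CPM in replicate 1, stood higher in replicate 1. The ranges of the 3 genes over the libraries did not overlap. Among all genes by mean CPM, Mir99a ranked 2, Mir100 ranked 8 and Mir99b ranked 13. Mir99a's neighbours in rank, Mirlet7i above and Mir23b below, changed order with it between the libraries, as did Mir17 above and Mir130a below Mir100, whereas Mir99b stayed below Mir126a and above Mir140 in both. Among the genes next in rank to the other members, only Mir341, below Mir125b-2, kept its order in both libraries.

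**Figure D1:**
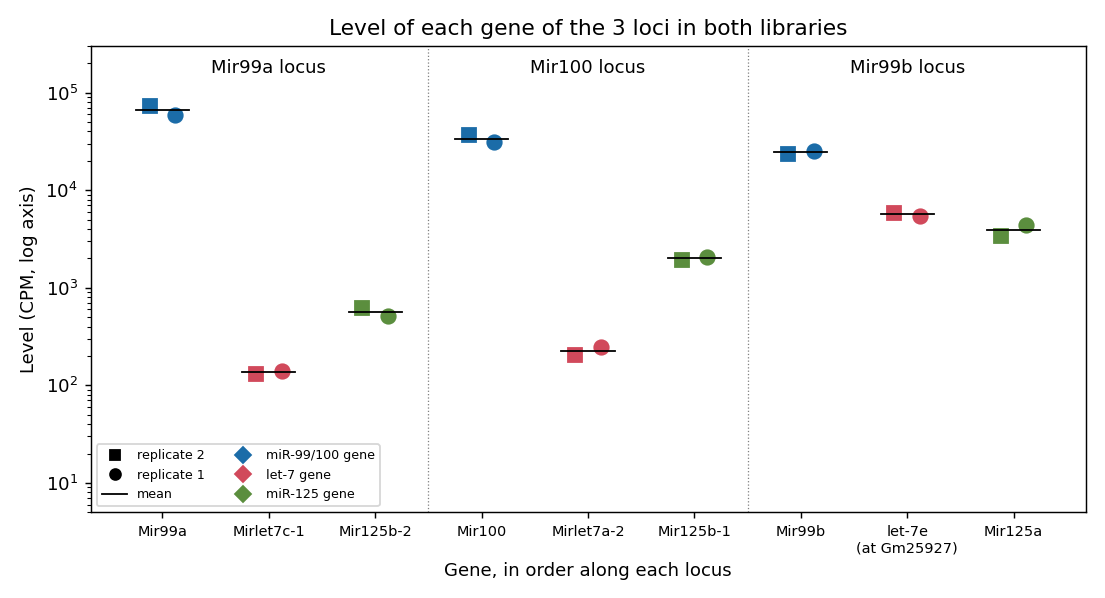
Level of each gene in CPM on a log axis (squares replicate 2, circles replicate 1, line the mean), in genomic order within each locus. Each miR-99/100 gene stands above its neighbours, and the let-7 position is lowest in the Mir99a and Mir100 loci but not in the Mir99b locus. The 5′ strands of Mirlet7c-1, Mir125b-2, Mirlet7a-2 and Mir125b-1 are each held by 2 hairpins, so these genes were not counted like the others.

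The let-7 position varied most between the loci. Let-7e, read at Gm25927, had 33670 opposite-strand counts in replicate 2 and 24931 in replicate 1, or 5834 and 5465 CPM, while the same-strand count of that gene model was 0 in both libraries. Mirlet7a-2 had 1184 counts (205 CPM) in replicate 2 and 1130 counts (248 CPM) in replicate 1. Mirlet7c-1 had 761 counts (132 CPM) in replicate 2 and 639 counts (140 CPM) in replicate 1. Both libraries put let-7e far above the others, with Mirlet7a-2 above Mirlet7c-1. Let-7e exceeded Mirlet7a-2 by 28.4-fold in replicate 2 and 22.1-fold in replicate 1, and Mirlet7c-1 by 44.2-fold in replicate 2 and 39.0-fold in replicate 1. The 5′ strand of let-7e is held by 1 hairpin and those of the other two by 2, so these folds compare genes that were not counted alike.

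At the miR-125 position Mir125a stood highest. Its level was 3407 CPM in replicate 2, against 4414 CPM in replicate 1, the widest relative gap between the libraries among the 9 genes. Mir125b-1 had 1943 CPM in replicate 2, against 2050 CPM in replicate 1, and Mir125b-2 had 620 CPM in replicate 2, against 516 CPM in replicate 1. The order of the 3 genes was the same in both libraries. Mir125a exceeded Mir125b-1 by 1.75-fold in replicate 2 and 2.15-fold in replicate 1, and Mir125b-2 by a log2 ratio of 2.46 in replicate 2 and 3.10 in replicate 1. The 2 genes for miR-125b share their 5′ strand, so each count rests on reads placed at that gene only, from an arm that is not given. In these reads Mir125b-1 exceeded Mir125b-2 by 3.14-fold in replicate 2 and 3.97-fold in replicate 1 (mean log2 ratio 1.82 ± 0.241). Whether this ratio holds for the shared 5′ strand was not tested. Mir125a ranked 51 among all genes, Mir125b-1 ranked 73 and Mir125b-2 ranked 113, against 37 for let-7e, 147 for Mirlet7a-2 and 170 for Mirlet7c-1.

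Both libraries gave the same order of all 9 genes: Mir99a, Mir100, Mir99b, let-7e, Mir125a, Mir125b-1, Mir125b-2, Mirlet7a-2, Mirlet7c-1. The ranges over the 2 libraries of neighbours in this order did not overlap, while the means ran from 65543 down to 136 CPM. The share of such neighbours over all genes was not computed, so nothing particular to these genes follows. The genes from Mir125b-1 down are those whose 5′ strand is held by 2 hairpins, so the order mixes genes not counted alike. The narrowest separations in CPM relative to spread were those of Mir100 over Mir99b, with a gap between means of 9331 CPM beside summed SDs of 5279 CPM, and of let-7e over Mir125a, with 1739 CPM beside 973 CPM.

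Ratios of neighbours within a library need no scaling and show how unlike the uniquely placed counts of the 3 loci were. Mir99a exceeded Mirlet7c-1 by 547-fold in replicate 2 and 421-fold in replicate 1. Mir100 exceeded Mirlet7a-2 by 179-fold in replicate 2 and 124-fold in replicate 1. Mir99b exceeded let-7e by only 4.05-fold and 4.61-fold. As log2 ratios the step over the let-7 gene was larger at the Mir99a locus than at the Mir99b locus by 6.79 ± 0.400, larger at the Mir100 locus than at the Mir99b locus by 5.11 ± 0.503, and larger at the Mir99a locus than at the Mir100 locus by 1.69 ± 0.103. The first 2 differences set let-7 strands held by 2 hairpins against let-7e, which is held by 1. These loci were thus not counted alike, and the part of this in the differences was not tested. The last difference is between loci whose let-7 strands are both held by 2 hairpins. Both let-7 counts would lack full-length 5′ reads, and whether the part lacking differs between let-7c and let-7a was not tested.

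The step over the miR-125 gene was also smallest at the Mir99b locus. Mir99a exceeded Mir125b-2 by 116-fold in replicate 2 and 114-fold in replicate 1. Mir100 exceeded Mir125b-1 by 18.9-fold and 15.0-fold, and Mir99b exceeded Mir125a by 6.94-fold and 5.71-fold. The Mir99a locus differed from the Mir100 locus here by a log2 ratio of 2.77 ± 0.213, and the Mir100 locus from the Mir99b locus by 1.42 ± 0.0342. The order of the let-7 and miR-125 genes was turned between loci. Let-7e exceeded Mir125a by 1.71-fold in replicate 2 and 1.24-fold in replicate 1, whereas Mirlet7c-1 stood at 0.213 and 0.271 times Mir125b-2 and Mirlet7a-2 at 0.106 and 0.121 times Mir125b-1. Only at the Mir99b locus are the 5′ strands of all 3 genes held by 1 hairpin each.

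**Figure D2:**
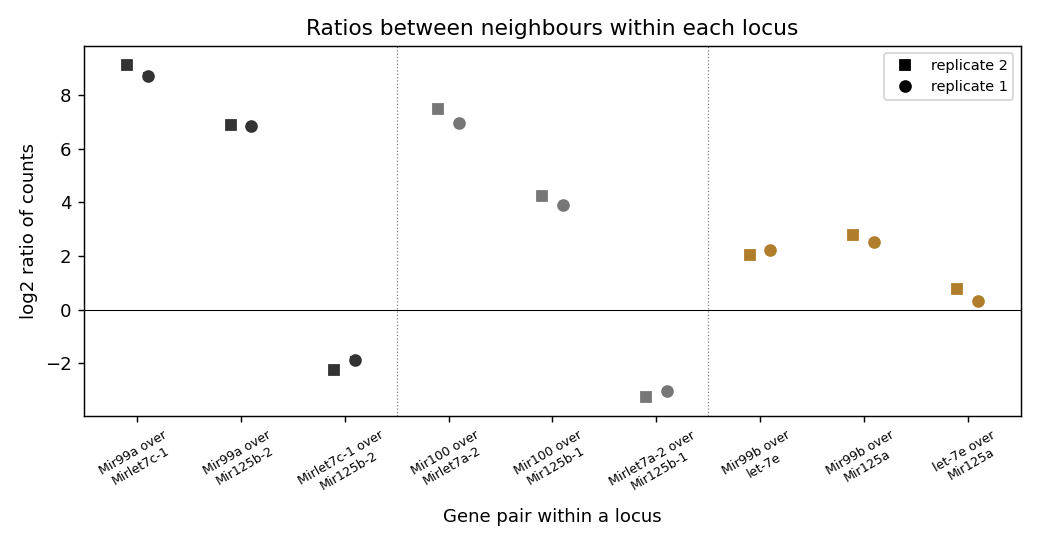
Log2 ratio of counts between genes of the same locus (squares replicate 2, circles replicate 1, bars 95% counting intervals, mostly smaller than the symbols). The miR-99/100 gene exceeds both neighbours at each locus, with the smallest steps at the Mir99b locus, and let-7 over miR-125 is above 0 only there.

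Spacing did not order the levels in the same way at the 3 loci. Mirlet7c-1, 0.656 kb from Mir99a, was lower than Mir125b-2, which lies 46.5 kb further on. Mirlet7a-2, 5.21 kb from Mir100, was likewise lower than Mir125b-1. At the compact Mir99b locus let-7e and Mir125a stood within 1.71-fold of each other in both libraries. The loci were not counted alike: in the Mir99a and Mir100 loci the let-7 and miR-125 strands are each held by 2 hairpins, in the Mir99b locus by 1, and the part of this in the difference was not tested.

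**Figure D3:**
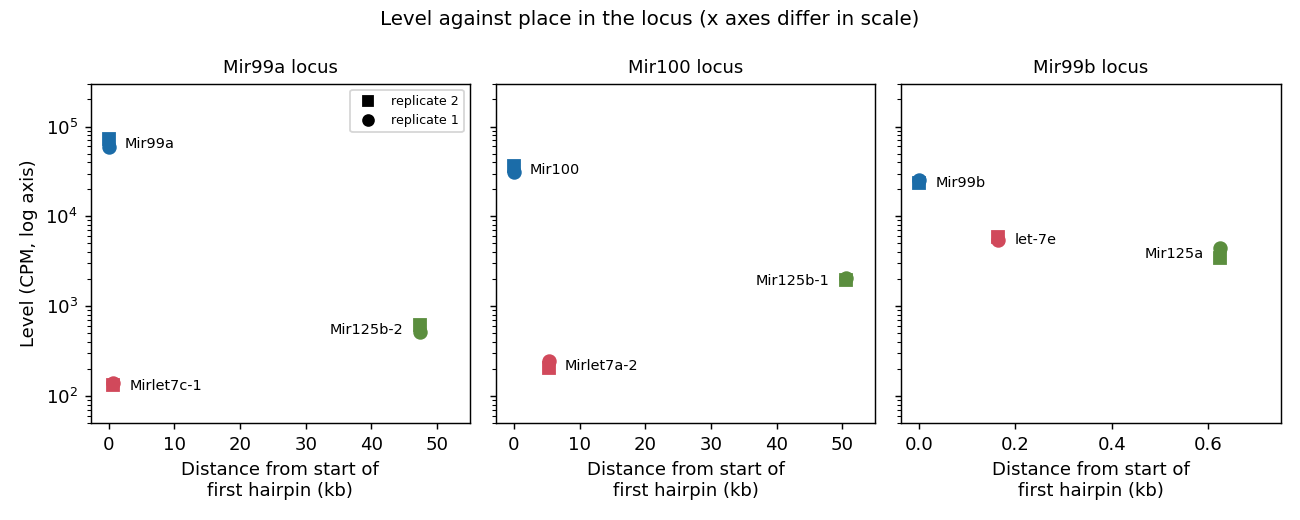
Level in CPM on a log axis against distance in kb from the start of the first hairpin, 1 panel per locus with its own distance scale (squares replicate 2, circles replicate 1). In the Mir99a and Mir100 loci the nearer neighbour of the first gene is the lowest point, and in the Mir99b locus both neighbours lie close together.

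In uniquely placed counts, genes elsewhere that carry the same mature 5′ strands lay within 1.60-fold of the members. Full-length reads of the shared strand would add to no gene count, so these ratios do not measure it. The arm of the counted reads is not given, and whether the 3′ strands of Mirlet7a-1 and Mirlet7c-2 are unique was not tested. Mirlet7a-1 had 1153 counts in replicate 2 and 962 in replicate 1, so that Mirlet7a-2 stood at 1.03 and 1.17 times its count. Mirlet7c-2 had 476 and 465 counts, and Mirlet7c-1 stood at 1.60 and 1.37 times its count. The log2 ratio of Mirlet7a-2 to Mirlet7a-1 had a 95% counting interval of -0.08 to 0.16 in replicate 2, where a difference was thus not detectable, and of 0.11 to 0.36 in replicate 1. For Mirlet7c-1 to Mirlet7c-2 it was 0.51 to 0.84 in replicate 2 and 0.29 to 0.63 in replicate 1, above 0 in both. Past the shared 5′ strand, the hairpins of each let-7a or let-7c pair agree in 1 further base after it and 0 before it. The miR-125b hairpins agree in 0 bases after it and 2 before it.

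Among genes with the seeds of the 3 loci, the member share differed by family. The miR-99/100 seed was found in no other mature entry of RefSeq. Of counts at genes with the miR-125 seed, the 3 members held 59.3% in replicate 2 and 63.2% in replicate 1, and the rest lay at Mir351, an X-linked gene of another miRNA cluster, at 4091 and 4067 CPM. Of counts at genes with the let-7 seed, the members held 4.54% in replicate 2 and 3.76% in replicate 1. The shares for both seeds cover uniquely placed reads only. Full-length reads of let-7a, let-7c, let-7f and miR-125b, each held by 2 hairpins, would add to no gene count. The shares of the families in all their reads are therefore not known. Mirlet7i (65548 ± 11599 CPM), Mirlet7g (55052 ± 352 CPM) and Mirlet7d (8969 ± 1473 CPM) stood above the members. Mir98 (5491 ± 621 CPM) was close to let-7e (5649 ± 261 CPM), and their ranges overlapped. Mirlet7b (2547 ± 55.8 CPM) and Mirlet7f-2 (1871 ± 46.3 CPM) lay below let-7e and above the other two members. Mir1961 and Mir7k (let-7k), and Mir6394 and Mir6367 with the miR-125 seed, had 0 counts, which allows up to 0.520 CPM in replicate 2 and 0.658 CPM in replicate 1 of uniquely placed reads. Mirlet7f-1 and Mirlet7j have no line under these names and were not analysed here.

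Among genes with counts only, the levels separated when grouped by the 5′ strand. The 6 genes with counts whose let-7-seed strand is held by 1 hairpin, let-7e among them, ranged from 2547 to 65548 CPM in mean level. The 5 with a strand held by 2 hairpins, Mirlet7a-2 and Mirlet7c-1 among them, ranged from 92.2 to 1871 CPM. For the miR-125 seed the ranges were 3910 to 4079 CPM (2 genes, 1 hairpin) and 568 to 1997 CPM (2 genes, 2 hairpins). Mir1961 and Mir7k with the let-7 seed, and Mir6394 and Mir6367 with the miR-125 seed, were left out. Their strands are each held by 1 hairpin and they had 0 counts, so with them the levels do not separate. These points share libraries and cluster neighbours, and the description carries no test.

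**Figure D4:**
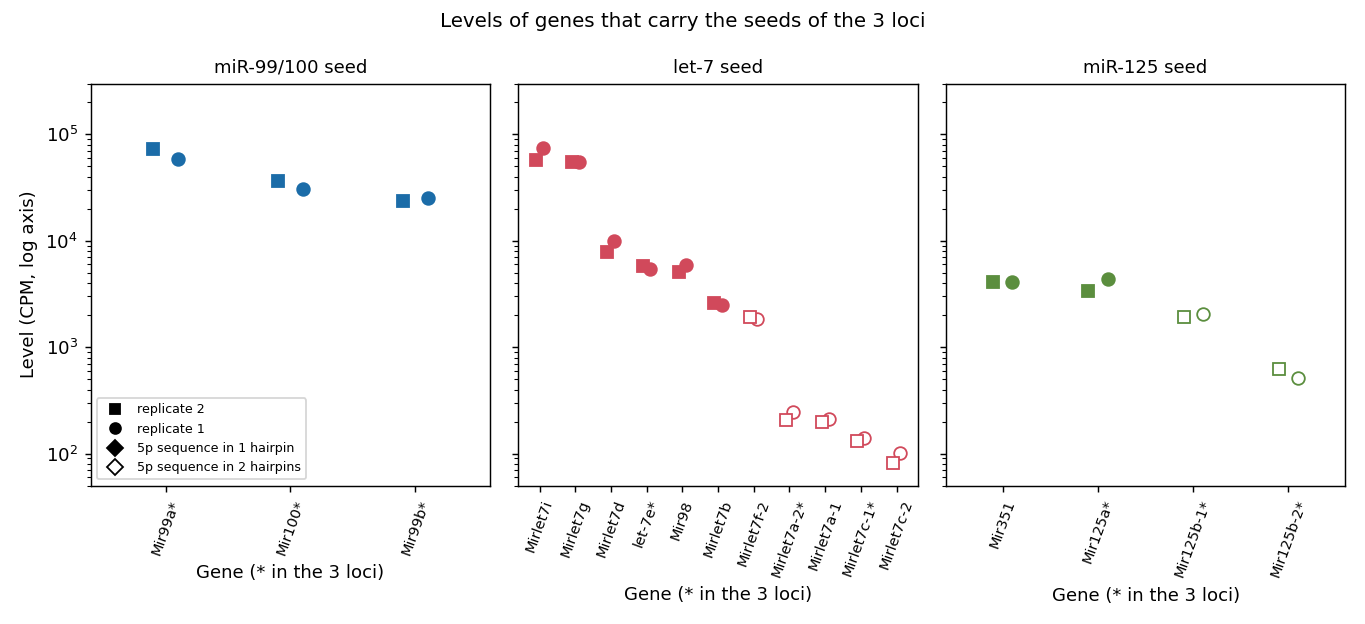
Levels in CPM (log axis) of genes with each of the 3 seeds and at least 200 counts over both libraries (squares replicate 2, circles replicate 1, filled where 1 hairpin holds the 5′ strand, open where 2 do, asterisk for genes of the 3 loci). Every open symbol of the let-7 and miR-125 panels lies below the filled ones of its panel. Mir1961, Mir7k, Mir6394 and Mir6367, held by 1 hairpin each and at 0 counts, are not shown.

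The libraries were compared gene by gene with a two-sided exact binomial test after TMM scaling, over the 361 lines with at least 10 counts in both libraries, let-7e included, with Benjamini-Hochberg adjustment. It sets the libraries against counting error and compares no conditions. Of all tested lines 54.8% were called, 27.1% higher in replicate 2 and 27.7% higher in replicate 1, and among lines with at least 100 counts in both libraries 68.8% were called. Of the 9 members, all above 100 counts, 4 were higher in replicate 2, 4 higher in replicate 1 and Mirlet7c-1 was not called (adjusted p = 0.334, exact binomial test). The median absolute log2 ratio was 0.25 over the members and 0.24 over all tested lines. Of the 8 let-7 genes outside the loci, 2 were higher in replicate 2, 5 higher in replicate 1 and Mirlet7a-1 was not called.

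The direction was not shared by all genes of a locus. Mir99a (log2 ratio of replicate 2 to replicate 1 0.29), Mir125b-2 (0.26), Mir100 (0.25) and let-7e (0.09) were higher in replicate 2. Mir125a (-0.38), Mirlet7a-2 (-0.27), Mir99b (-0.10) and Mir125b-1 (-0.08) were higher in replicate 1, and Mirlet7c-1 stood at -0.09. Mir99a and Mir125b-2 moved alike: their log2 ratio to each other differed between the libraries by 0.03 (95% counting interval -0.05 to 0.10). In the other within-locus pairs this interval, which covers counting error only, did not hold 0. The share of such pairs over all genes was not computed. Among single lines with at least 100 counts in both libraries, 68.8% were called, so nothing particular to these pairs follows. The largest differences within a locus were Mir100 to Mirlet7a-2, at 0.52 (0.41 to 0.64), and let-7e to Mir125a, at 0.47 (0.43 to 0.50). Across loci, Mir99a to Mir100 moved by 0.04 (0.03 to 0.05), while Mir99a to Mir99b moved by 0.38 (0.37 to 0.40).

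**Figure D5:**
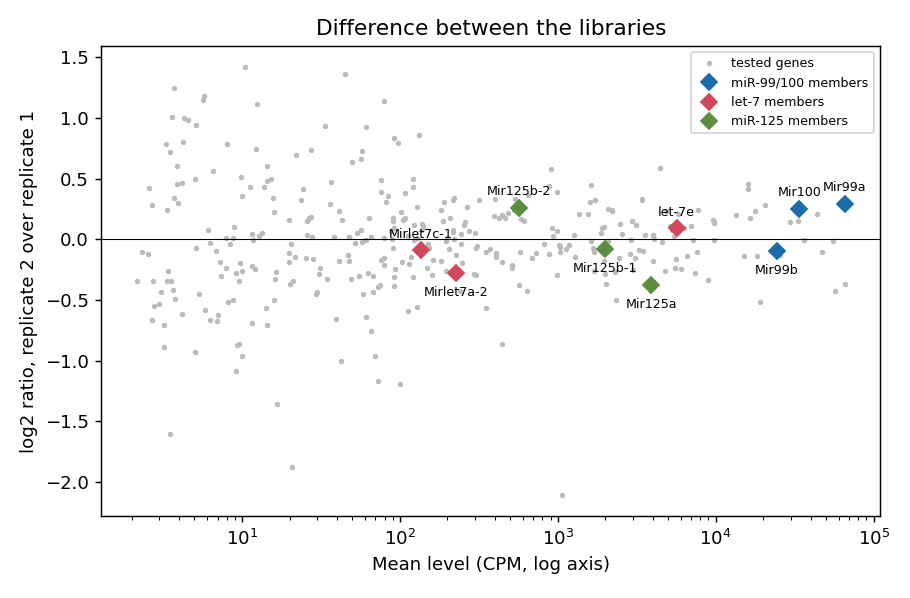
Log2 ratio of replicate 2 to replicate 1 after TMM scaling against mean level in CPM (log axis), with the 9 genes as coloured diamonds among the 361 tested lines (grey). The members lie between -0.38 and 0.29, and genes of 1 locus fall on both sides of 0.

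With 2 libraries the likeness of a pattern rests on that 1 ratio. Of 89 genes outside the loci with at least 1000 CPM, those nearest to Mir99a were Mir140 (0.28), Mir16-1 (0.31) and Mir96 (0.32). Nearest to Mir100 were Mir199b (0.25), Mir181c (0.24) and Mir101b (0.24), and nearest to Mir99b were Mir92-1, Mir335 and Mir301 (-0.10 each). The miR-10 genes, related to miR-99/100 in sequence but with another seed, lie in Hox clusters and were both higher in replicate 1, Mir10a by a log2 ratio of -2.11 and Mir10b by -0.50.

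Markers of cell types were called to unlike extents between the libraries, beside 27.1% of all tested lines called higher in replicate 2 and 27.7% in replicate 1. For mesenchyme with cartilage, 5 of 7 genes were higher in replicate 2 and 1 in replicate 1, with summed levels of 69395 and 64161 CPM in replicates 2 and 1. For epithelium, 5 of 7 genes were higher in replicate 2 and 2 in replicate 1, with sums of 63309 and 63539 CPM. Of the tested neural genes, 1 of 4 was higher in replicate 2 and 3 were not called. Of the white blood cell genes, 1 of 3 was higher in replicate 2 and 2 were not called, and of the erythroid genes 2 of 3 were higher in replicate 2 and 1 was not called. Of the 3 striated muscle genes with enough counts, 1 was higher in replicate 2, 1 in replicate 1 and 1 was not called. Mir122 was higher in replicate 2 and Mir126a in replicate 1. The endothelial gene Mir126a stood at 23871 and 25810 CPM. Sums were 565 and 553 CPM for 8 neural genes, 385 and 622 CPM for 6 striated muscle genes, 160 and 101 CPM for 3 erythroid genes, 514 and 494 CPM for 3 white blood cell genes, and 109 and 49.5 CPM for Mir122 of liver. Mir124a-1, Mir124a-3, Mir9-2, Mir1a-1, Mir133a-1 and Mir133a-2 were at 0, but their mature strands are known from several loci, so no limit on their level follows. The part of these cell types in the members' library differences was not tested.

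MiR-99a and miR-100 differ in 1 base, and how many mismatches were allowed in placing reads is not given in the sources used here, so exchange of reads between Mir99a and Mir100 was not tested. The same holds for let-7e and let-7a.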

How the data were processed

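Both libraries were deposited as whole-number read counts per miRNA gene, made by the authors against mm10 and GENCODE M4, as the deposited descriptions state. The files have no header; in 1973 gene lines the first count column equalled the sum of the other 2 (0 exceptions), which were read as the gene's own strand and the opposite strand. The aligner with its settings, and any trimming, is not given in the sources used here. Multiply placed reads are a separate class (31.0% of reads in replicate 2 and 30.7% in replicate 1), and no read class entered a total.

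GENCODE M21 (GRCm38) gave the gene names and their positions (1894 identifiers matched) and RefSeq (GRCm38.p6) the sequences. CPM, shares with 95% Wilson intervals, and ratios with normal-approximation 95% counting intervals were computed in Python 3.11.15 with SciPy 1.17.1. TMM scaling used edgeR 4.0.16 under R 4.3.3, and the libraries were compared by the exact binomial test with Benjamini-Hochberg adjustment at 0.05, which was tested on simulated data. The count minimum was 10 in both libraries. Named genes were the 9 members, the listed family and marker genes, genes sharing a mature sequence or seed, neighbours in rank, and for each leading gene the 3 with the nearest library ratio. Members and lists were chosen with earlier results of these data known. Alternatives were the unstranded column, other totals and scalings (DESeq2 1.42.0 size factors among them), other count minimums, and leaving out each library.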

Additional observations from a re-analysis of the deposited data

Results flagged for a closer look

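Counts outside the analysed columns exceeded the 3 counts that a count of 0 allows. Reads placed at several loci numbered 4058237 in replicate 2 and 3179149 in replicate 1. They have no gene in the files, and how many are let-7a, let-7c or miR-125b was not tested. At Gm24111, which lies opposite Mirlet7f-1, the opposite strand held 511 counts in each library, and at Mirlet7b it held 15 in replicate 2 and 18 in replicate 1.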

How the results depend on the processing

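Of 210 values under alternative settings for 44 results, 198 counted as unchanged and 12 moved. Levels and gene ratios had to stay within the spread between libraries, and library log2 ratios to keep direction and side of the threshold. Numbers of called genes had only to stay within a set fold of the main number. Over all tested lines they ranged from 91 to 111 higher in replicate 2 and from 88 to 104 higher in replicate 1. Part of the 198 could not have moved. With 2 libraries, the value of each alone always lies within 1 SD of their mean. Ratios from the unstranded column were unchanged, because the members had 0 counts on the strand not read. All 12 that moved came from leaving Mir99a and Mirlet7i out of the total used as divisor, which raises each level. Mir99a stayed in the counts divided, so for the 9 genes and the Mir99a locus the value is a ratio to that smaller total and not a share of it: 15.7% for the 9 genes, 7.62% for the Mir99a locus, 4.14% for the Mir100 locus and 3.91% for the Mir99b locus. Without replicate 2 and without replicate 1 the value for the 9 genes was 12.8% and 14.5%. Counts of members called were 4 in each direction under every scaling, count minimum and strand column tried, and the log2 ratio of Mir125b-1, the called member nearest to 0, ranged from -0.08 to -0.06 with adjusted p (exact binomial test) from 0.000207 to 0.0199. The library test could not be run with a library left out. Having 2 libraries of 1 group limits every statement to levels and their spread, and unique placement limits those on Mirlet7c-1, Mirlet7a-2, Mir125b-1 and Mir125b-2. No paired analysis was possible because the samples form 1 group.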
